A study of Mus musculus with 12 samples.

Results

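Polycomb repressive complex 2 (PRC2) is the complex that methylates histone H3 at lysine 27, and the genes described here are the 9 that encode its core and accessory subunits: Ezh1, Ezh2, Suz12, Eed, Jarid2, Mtf2, Phf19, Aebp2 and Rbbp4. They were taken as a list of subunits, by no rule on their values but with earlier results of these data known. All 9 were found by symbol among the 51467 genes of the count table. Mouse embryonic stem cells (ESCs) of 2 genotypes were compared, wild-type (WT, the V6.5 line) and Dgcr8 KO, a previously made ESC line without the RNA-binding partner of Drosha that starts microRNA processing. Cells of both genotypes were grown in serum with LIF and 2i and received 4-thiouridine (4sU), a uridine analogue, at 500 uM for 30 min. From each RNA sample a 4sU library of captured, newly made RNA (nascent RNA) and a total library of rRNA-depleted RNA were made, with 3 replicates per genotype and library type and 12 libraries in all. The sources used here do not say whether replicates were separate cultures or how many KO clones were used, so p-values measure only the spread between these libraries, which may be technical.

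PRC2 holds 1 of 2 alternative methyltransferases, EZH2 or EZH1, on a scaffold of SUZ12, EED and a histone-binding protein, RBBP4 or RBBP7. In the form called PRC2.1 the core is joined by a Polycomb-like protein such as MTF2 or PHF19, and in PRC2.2 by JARID2 and AEBP2. EZH2 is the more active enzyme and is generally abundant in dividing cells, whereas EZH1 is typical of resting and differentiated cells. In ESCs the mark that PRC2 makes covers the promoters of many silent developmental genes, and ESCs can be kept in culture without the complex.

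Total counts ranged from 4593914 to 9295245 per library, and every value below is relative to the other genes of its library, because the ERCC spike-in rows held 1 count in all libraries together. Dgcr8 itself fell in total RNA from 101.6 ± 9.30 to 33.3 ± 1.09 CPM (counts adjusted for library depth with TMM factors, mean ± SD, n = 3) where the label was Dgcr8 KO. One label field gives these libraries another gene name, but the titles and the genotype field name Dgcr8. The 10 markers of pluripotent cells were all detected, with a summed level of 6083 to 6231 CPM in WT total and 5912 to 6049 CPM in Dgcr8 KO total libraries. The 12 fibroblast markers, for feeder cells, summed to 81.2 to 89.3 CPM in WT total and 85.5 to 92.3 CPM in Dgcr8 KO total libraries, with no count of Col3a1, Postn or Dcn in either group. The 15 markers of early differentiation summed to 175.1 to 190.6 CPM in WT total and 180.1 to 186.6 CPM in Dgcr8 KO total libraries, but to 124.5 to 127.2 CPM in WT 4sU and 163.5 to 168.8 CPM in Dgcr8 KO 4sU libraries. The part of these marker levels in the results below was not tested. In such bulk libraries, fewer cells of a kind and less RNA per cell cannot be told apart.

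Among the subunits, levels per length differed widely. Mtf2 stood highest in WT total RNA at 234.7 ± 6.20 CPM per kilobase of exon (SD, n = 3), followed by the core genes Eed at 129.7 ± 3.69, Suz12 at 117.8 ± 6.51 and Rbbp4 at 107.8 ± 1.62. Jarid2 at 62.7 ± 1.88 and Ezh2 at 59.9 ± 3.75 CPM per kilobase overlapped between replicates and could not be ordered. Aebp2 followed at 35.8 ± 0.888, then Ezh1 at 7.36 ± 0.499, and Phf19 was lowest at 0.978 ± 0.318 CPM per kilobase. All other neighbours in this order were separated in all 3 replicates. In Dgcr8 KO total RNA Mtf2 was again highest and Phf19 lowest, but Suz12 at 91.8 ± 3.23 and Eed at 89.9 ± 2.39 overlapped, and Aebp2 at 51.7 ± 0.674 stood above Ezh2 at 42.5 ± 1.36 CPM per kilobase. The 9 genes summed to 756.7 ± 14.1 CPM per kilobase in WT total and 586.8 ± 4.03 in Dgcr8 KO total libraries, with 476.9 ± 21.8 in WT 4sU and 396.1 ± 7.14 in Dgcr8 KO 4sU libraries. These are sums over subunits and do not give an amount of complex. The Polycomb-like gene Mtf2 made the largest part of each sum.

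**Figure D1:**
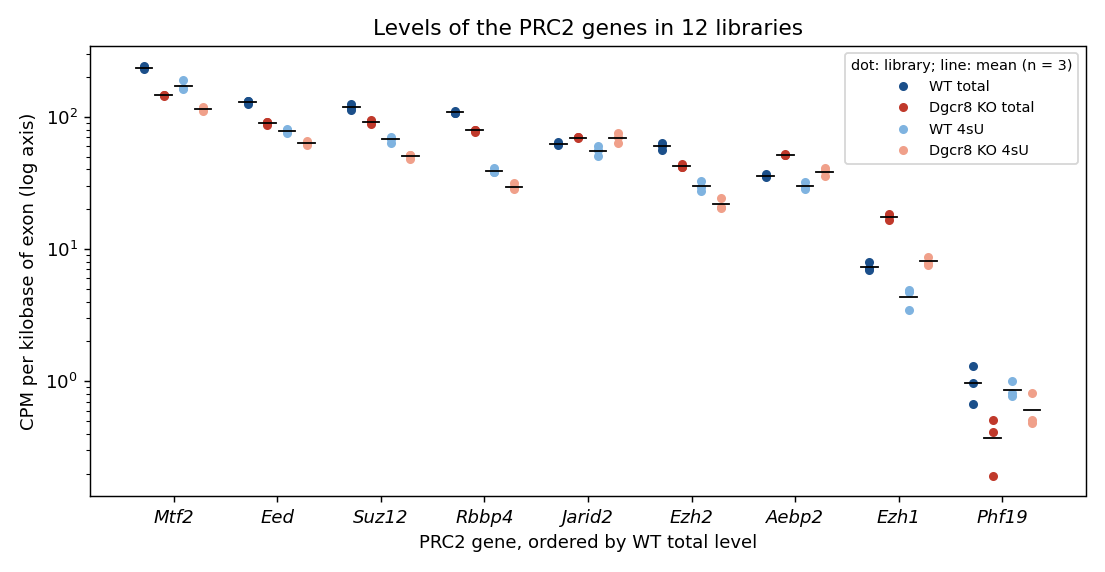
Level of each PRC2 gene in CPM per kilobase of exon (log axis), with dots for the 12 libraries, colours for the 4 groups and lines for the group means (n = 3). Ezh1, Aebp2 and Jarid2 stand higher in Dgcr8 KO than in WT in both library types, the other genes stand lower or, for Phf19 in 4sU RNA, overlap, and Phf19 stands at or under 1.30 CPM per kilobase throughout.

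MicroRNAs act mainly through sites in 3′ UTRs that pair with their seed (bases 2 to 8), so the 3′ UTRs of the 9 genes were searched for seed matches of 7 families. The ESC-specific cell cycle (ESCC) family, which dominates ESCs, is represented by miR-294-3p. Related seeds occur in miR-20a-5p, and miR-101a-3p and miR-26a-5p are known regulators of Ezh2 in other cells. Their mature sequences are shown because the sites below pair with them, with the seed in capitals (RefSeq, GRCm38.p6):
miR-294-3p: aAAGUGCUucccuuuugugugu
miR-20a-5p: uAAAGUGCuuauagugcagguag
miR-101a-3p: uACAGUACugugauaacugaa
miR-26a-5p: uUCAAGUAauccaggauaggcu

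Sites were counted on the transcript strand of the longest 3′ UTR as a match to seed bases 2 to 8, with or without a final A, or as a match to bases 2 to 7 followed by A. For miR-294-3p the letters were AGCACTT, AGCACTTA and GCACTTA. Only Ezh1 and Aebp2, of the 9 genes, held a miR-294-3p site, 1 each, against 21.3% of 11816 tested genes with a 3′ UTR. Both sites are exonic and lie in the 3′ UTR, with the site in capitals (mm10):
Ezh1 chr11:101192011-101192017, minus strand: atagagaacaaAGCACTTtaactctctttt
Aebp2 chr6:140652600-140652606, plus strand: ccttttgcttaAGCACTTcatcacttgttt
The Ezh1 site starts at base 922 of a 3′ UTR of 1824 bases, and the same letters hold a site for miR-20a-5p shifted by a single base, so these are not independent matches. Ezh1 held 3 miR-20a-5p sites in all, and the other one of 8 letters lies near the end of the 3′ UTR:
Ezh1 chr11:101191163-101191170, minus strand: gtaaatttcttGCACTTTAaagtcctgtgg
The 3′ UTR of Ezh2 is short, at 402 bases, beside a median of 1202 bases over the tested genes. It held no miR-294-3p or miR-20a-5p site but 2 sites for miR-101a-3p and 1 for miR-26a-5p:
Ezh2 chr6:47530476-47530482, minus strand: aggaaccttgaGTACTGTgggcaatttaga
Ezh2 chr6:47530420-47530427, minus strand: gaatttgcaaaGTACTGTAacagtaattta
Ezh2 chr6:47530286-47530293, minus strand: tgaataaagaaTACTTGAActtgttgttga
Sites for miR-101a-3p were found in 3 of the 9 genes (20.9% of tested genes), for miR-26a-5p in 4 (21.8%), for miR-20a-5p in 3 (22.4%), for miR-200b-3p in 3 (20.7%), for miR-92a-3p in 3 (13.8%) and for let-7a-5p in 1, Ezh2 (17.3%), or in 2, with Aebp2, when any coding transcript was searched. Phf19 held none of the 7 kinds of site in 1962 bases. These shares were not adjusted for the length of the 3′ UTR, which ran from 402 bases for Ezh2 to 4695 bases for Aebp2. A seed match is a string of letters and is not evidence of binding.

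To ask how loss of Dgcr8 changed PRC2 genes, total and nascent RNA were compared between genotypes. The enzyme genes moved in opposite directions. Ezh1 (ENSMUSG00000006920.14, mm10 chromosome 11, 101191115 to 101226463, minus strand), the minor enzyme in these cells, had 42.5, 43.7 and 48.2 CPM in the WT total libraries and 112.0, 101.3 and 107.1 CPM in the Dgcr8 KO total libraries. The groups did not overlap, and the log2 change was 1.25 (adjusted p = 2.22e-12 by limma, SE 0.0998), a 2.38-fold rise. In 4sU RNA Ezh1 had 20.9, 28.7 and 29.5 CPM in WT and 47.8, 46.0 and 52.9 CPM in Dgcr8 KO, again with no overlap. WT replicate 1 was the low one, and the log2 change was 0.92 (adjusted p = 3.97e-08 by limma, SE 0.114). Of all tested genes, 7.19% had a higher change in total RNA.

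Ezh2 (ENSMUSG00000029687.16, chromosome 6, 47530139 to 47595030, minus strand), the main enzyme, had 156.7, 169.6 and 177.5 CPM in WT total and 123.5, 117.2 and 116.6 CPM in Dgcr8 KO total libraries. Every KO library lay below every WT library, and the log2 change was -0.50 (adjusted p = 1.04e-06 by limma, SE 0.0753). Its 4sU level was 91.5, 77.4 and 82.2 CPM in WT and 57.2, 58.4 and 68.3 CPM in Dgcr8 KO. Nascent Ezh2 thus fell without overlap, by 0.46 on the log2 scale (adjusted p = 3.15e-05 by limma, SE 0.0846).

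The balance of the enzymes was compared per length within each library, where scaling between libraries cancels. Ezh1 made 11.1%, 10.6% and 11.1% of the summed Ezh1 and Ezh2 level in WT total RNA and 29.5%, 28.5% and 29.7% in Dgcr8 KO total RNA. In 4sU RNA its share was 9.53%, 14.6% and 14.2% in WT and 27.8%, 26.6% and 26.3% in Dgcr8 KO. Ezh2 therefore remained the higher of the pair in every library. The log2 ratio of Ezh2 to Ezh1 went from 3.03 ± 0.0438 to 1.28 ± 0.0456 in total RNA (SD, n = 3), a difference of -1.75, and from 2.80 ± 0.390 to 1.44 ± 0.0577 in 4sU RNA, a difference of -1.36. Each gave p = 0.1 (exact two-sided permutation test, adjusted p = 0.15 over 6 comparisons of pairs), which is the smallest p that 3 against 3 libraries allow, so the design could not reach 0.05.

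**Figure D2:**
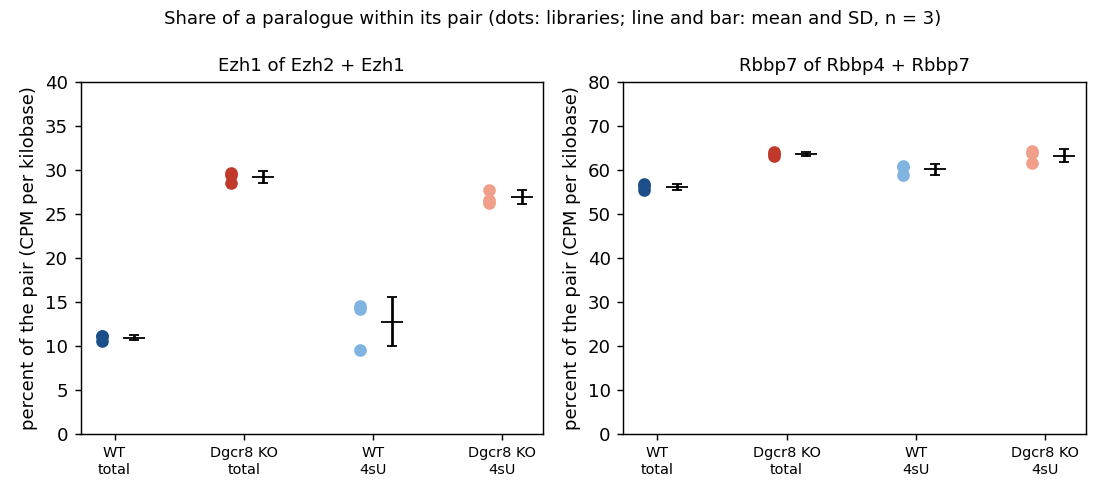
Share of Ezh1 in the sum of Ezh1 and Ezh2 (left) and of Rbbp7 in the sum of Rbbp4 and Rbbp7 (right), in percent of CPM per kilobase, with dots for libraries and the mean and SD beside them (n = 3). The Ezh1 share lies at 9.53% to 14.6% in WT and at 26.3% to 29.7% in Dgcr8 KO libraries.

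The scaffold genes were all lower in Dgcr8 KO. Suz12 (ENSMUSG00000017548.15, chromosome 11, 79993106 to 80034123, plus strand), whose product holds the complex together, had 505.7, 547.0 and 492.4 CPM in WT total and 385.3, 411.7 and 407.3 CPM in Dgcr8 KO total libraries. It fell without overlap, by 0.36 on the log2 scale (adjusted p = 9.35e-07 by limma, SE 0.0543). Nascent Suz12 went from 307.4, 296.1 and 278.6 CPM to 207.9, 223.6 and 224.8 CPM, a log2 change of -0.43 (adjusted p = 2.67e-07 by limma, SE 0.0587). Eed (ENSMUSG00000030619.9, chromosome 7, 89954654 to 89980983, minus strand) encodes the subunit that binds the finished mark and stimulates the enzyme. Its level was 259.3, 273.2 and 271.6 CPM in WT total and 180.0, 188.4 and 188.8 CPM in Dgcr8 KO total libraries, a log2 change of -0.53 (adjusted p = 9.44e-10 by limma, SE 0.0558). Nascent Eed went from 165.0, 154.6 and 166.5 CPM to 131.1, 125.9 and 134.8 CPM, a smaller log2 change of -0.31 (adjusted p = 5.15e-05 by limma, SE 0.0603). For Eed as for Suz12, no KO library reached the lowest WT library in either RNA.

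Rbbp4 (ENSMUSG00000057236.10, chromosome 4, 129307100 to 129335370, minus strand) encodes a histone-binding protein that also serves other chromatin complexes. It had 483.0, 471.9 and 469.7 CPM in WT total and 337.7, 350.7 and 352.2 CPM in Dgcr8 KO total libraries, a log2 change of -0.45 (adjusted p = 1.13e-08 by limma, SE 0.0538). In 4sU RNA it had 168.1, 167.1 and 179.5 CPM in WT and 125.3, 128.8 and 138.0 CPM in Dgcr8 KO, a log2 change of -0.39 (adjusted p = 1.67e-06 by limma, SE 0.0602). Rbbp4 fell without overlap in both. Its paralogue Rbbp7 did not pass the test in total RNA, with 324.1 ± 5.34 CPM in WT and 323.9 ± 8.68 CPM in Dgcr8 KO (SD, n = 3). Nascent Rbbp7 did fall, from 140.3, 127.0 and 148.0 CPM in WT to 118.0, 123.6 and 117.8 CPM in Dgcr8 KO without overlap, a log2 change of -0.21 (adjusted p = 0.00651 by limma, SE 0.0644). Per length, Rbbp7 made 56.2% ± 0.711 of the pair in WT total and 63.7% ± 0.378 in Dgcr8 KO total libraries. The log2 ratio of Rbbp4 to Rbbp7 differed by -0.45 in total and by -0.19 in 4sU RNA, each without overlap and at the smallest possible p (p = 0.1, exact two-sided permutation test, adjusted p = 0.15).

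Of the Polycomb-like genes, Mtf2 (ENSMUSG00000029267.17, chromosome 5, 108065742 to 108109004, plus strand), whose product brings PRC2.1 to CpG islands, had the largest fall among the well-counted members. It had 959.5, 974.2 and 925.2 CPM in WT total and 593.1, 580.6 and 590.2 CPM in Dgcr8 KO total libraries, a log2 change of -0.70 (adjusted p = 1.25e-13 by limma, SE 0.0492). Nascent Mtf2 went from 763.0, 669.1 and 660.7 CPM to 444.6, 471.4 and 479.7 CPM, a log2 change of -0.58 (adjusted p = 3.63e-11 by limma, SE 0.0519). Neither pair of groups overlapped.

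Phf19 (ENSMUSG00000026873.9, chromosome 2, 34893757 to 34913976, minus strand), a paralogue of Mtf2, was near the limit of detection, with 5 to 40 counts per library. It passed the filter of 3 CPM in 3 libraries with 5 libraries, 4 of them WT, so its place among the tested genes leaned on the group in which it was higher. Its counts were 16, 40 and 31 in WT total and 17, 12 and 5 in Dgcr8 KO total libraries. After scaling these were 2.50, 4.88 and 3.60 CPM against 1.92, 1.56 and 0.722 CPM, which did not overlap, and the log2 change was -1.39 (adjusted p = 0.00121 by limma, SE 0.359). Leaving out each replicate in turn gave -1.68 to -1.02. Nascent Phf19 overlapped between genotypes, at 2.90, 3.77 and 3.02 CPM in WT and 1.80, 1.91 and 3.05 CPM in Dgcr8 KO, and did not pass the test (log2 change -0.51, 95% interval -1.26 to 0.24, limma adjusted p = 0.241). Mtf2 exceeded Phf19 so far that Phf19 made under 1% of the pair per length in every library, from 0.133% to 0.684%. The log2 ratio of Mtf2 to Phf19 did not pass in total RNA (difference 0.75, p = 0.3, exact two-sided permutation test, adjusted p = 0.36, with a difference of 0.33 when Dgcr8 KO replicate 3 was left out) or in 4sU RNA (difference -0.030, p = 1, exact, adjusted p = 1).

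The PRC2.2 genes moved the other way. Aebp2 (ENSMUSG00000030232.18, chromosome 6, 140622663 to 140678472, plus strand), which encodes a zinc-finger cofactor of the enzyme, had 291.3, 285.2 and 299.6 CPM in WT total and 422.3, 416.1 and 427.1 CPM in Dgcr8 KO total libraries. It rose without overlap, by 0.53 on the log2 scale (adjusted p = 5.35e-10 by limma, SE 0.0542). Nascent Aebp2 rose from 263.1, 241.1 and 230.7 CPM to 292.3, 332.1 and 318.7 CPM, a log2 change of 0.36 (adjusted p = 3.12e-06 by limma, SE 0.0571). Jarid2 (ENSMUSG00000038518.15, chromosome 13, 44730774 to 44921643, plus strand) encodes a DNA-binding cofactor of the Jumonji family without demethylase activity. Its total level was 375.3, 398.2 and 384.3 CPM in WT and 429.0, 432.9 and 422.5 CPM in Dgcr8 KO, the smallest of the 9 changes (log2 change 0.15, SE 0.0573, limma adjusted p = 0.0247). This call was lost without WT replicate 1 (limma adjusted p = 0.128) and without Dgcr8 KO replicate 2 (limma adjusted p = 0.0803), in a range of 0.00188 to 0.128 over all alternatives. Nascent Jarid2 was 347.9, 367.5 and 309.4 CPM in WT and 460.6, 435.7 and 389.7 CPM in Dgcr8 KO, a log2 change of 0.33 (adjusted p = 2.12e-05 by limma, SE 0.0595).

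In total RNA, all 9 genes passed the test (limma adjusted p under 0.05), 3 higher and 6 lower in Dgcr8 KO, where 61.5% of 14033 tested genes passed, 26.1% higher and 35.4% lower. All 9 also had groups that did not overlap, as had 68.8% of tested genes. With the further limit of an absolute log2 change over 1, 2 of the 9 were called, Ezh1 and Phf19, beside 17.6% of tested genes. Phf19 counts in each of these tallies, although it entered the test mainly through WT libraries, where it was higher. With 3 CPM required in all 12 libraries Phf19 was not tested, and 8 of the 8 tested members passed, beside 67.07% of tested genes. In nascent RNA 8 of 9 passed, 3 higher and 5 lower, where 56.3% of tested genes passed, 28.3% higher and 28% lower. The same 8 had groups that did not overlap, as had 59% of tested genes. None of the 9 had a nascent log2 change over 1 in size, the furthest being 0.92 for Ezh1, where 14.8% of tested genes were called with that limit. The median log2 change of the 9 was -0.45 in total RNA and -0.39 in nascent RNA, where the medians of all tested genes were -0.09 and -0.02. For each of the 9 genes the fitted changes in total and nascent RNA had the same sign.

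**Figure D3:**
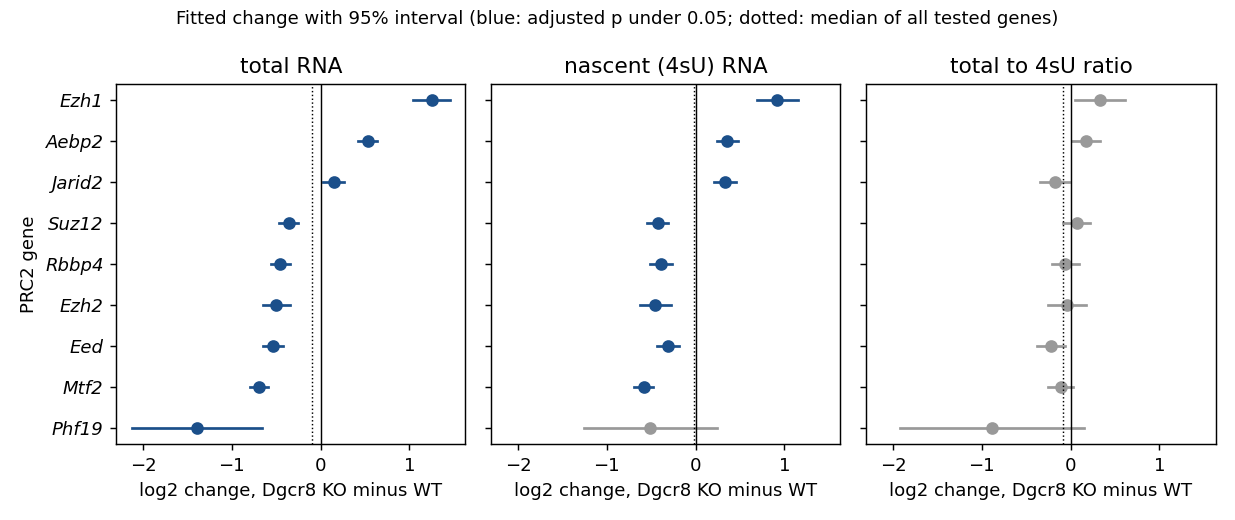
Fitted log2 change (Dgcr8 KO minus WT) of each PRC2 gene in total RNA, nascent RNA and the total to 4sU ratio, with 95% intervals, blue where the adjusted p was under 0.05 and grey otherwise, and a dotted line at the median of all tested genes. Ezh1, Aebp2 and Jarid2 lie right of 0 in total and nascent RNA, and no change of the ratio passed the test.

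The ratio of total to 4sU signal measures relative mRNA stability when levels are steady, and its change between genotypes was tested as the interaction of library type and genotype. None of the 9 genes passed in limma with TMM factors and no block, or in the quasi-likelihood test of edgeR, against 16.1% of tested genes in limma. At an unadjusted p under 0.05 there were 4 by either tool, namely Ezh1, Eed, Jarid2 and Aebp2. The share of all tested genes at that unadjusted limit was not counted, so these 4 are not shown to be an excess. At an adjusted p under 0.05 DESeq2 called 2, Ezh1 and Aebp2, beside 11.8% of tested genes. The fitted change was 0.33 for Ezh1 (95% interval 0.046 to 0.61, limma adjusted p = 0.109) and 0.17 for Aebp2 (0.016 to 0.33, limma adjusted p = 0.133), the highest point estimates of the 9. It was -0.22 for Eed (-0.38 to -0.059, limma adjusted p = 0.0539) and -0.18 for Jarid2 (-0.34 to -0.015, limma adjusted p = 0.137). The intervals of Ezh2 (-0.26 to 0.17), Suz12 (-0.090 to 0.22), Mtf2 (-0.25 to 0.030) and Rbbp4 (-0.21 to 0.093) spanned 0 and excluded a change of 1 in size, whereas that of Phf19 (-1.92 to 0.15) did not. The median of the 9 was -0.06 and that of all tested genes -0.09.

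These calls depended on how the libraries were set against each other. When the 4sU and total library with the same number were treated as parts of the same RNA sample, as the labelling protocol describes, 3 of the 9 passed, beside 19.6% of tested genes: Ezh1 (log2 change 0.36, limma adjusted p = 0.0318), Eed (-0.22, limma adjusted p = 0.0398) and Jarid2 (-0.18, limma adjusted p = 0.0484). With RLE size factors in place of TMM, where 14.3% of tested genes passed, the passing members were Ezh1 (0.42, limma adjusted p = 0.0389) and Aebp2 (0.26, limma adjusted p = 0.0200). Over all alternatives the adjusted p ranged from 0.0304 to 0.362 for Ezh1, 0.0200 to 0.457 for Aebp2, 0.0398 to 0.383 for Eed and 0.0427 to 0.675 for Jarid2. Of the genes called for stability among all tested, 31.1% were higher in Dgcr8 KO with TMM, 52.2% with RLE and 46.6% with upper-quartile factors. The Ezh1 call was also made without WT replicate 1 (0.47, limma adjusted p = 0.0304), the replicate with the low 4sU value, and the Jarid2 call without Dgcr8 KO replicate 3 (-0.24, limma adjusted p = 0.0427).

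**Figure D4:**
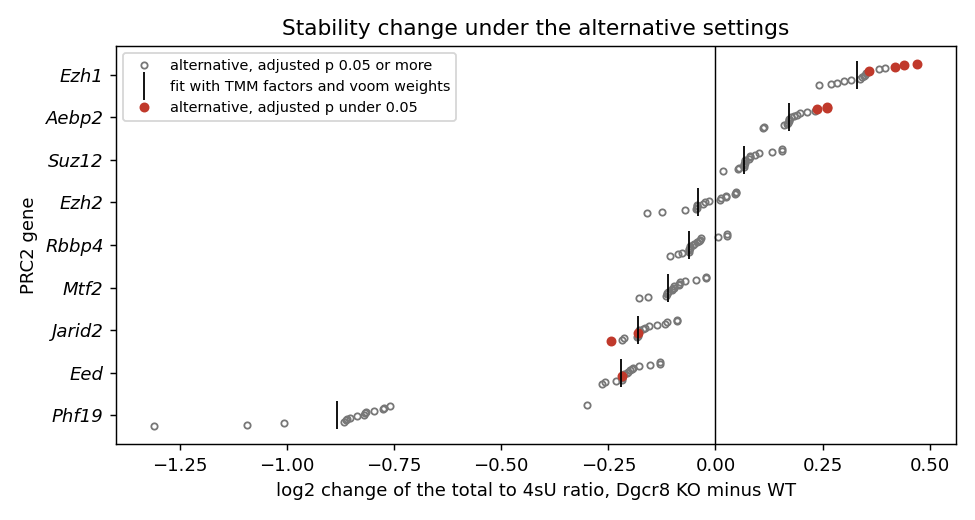
Log2 change of the total to 4sU ratio (Dgcr8 KO minus WT) of each PRC2 gene in the TMM and voom fit (vertical bars) and under each alternative setting (circles, red where the adjusted p was under 0.05). Ezh1 and Aebp2 stay right of 0, Eed, Jarid2, Mtf2 and Phf19 stay left of 0, and Ezh2 and Rbbp4 fall on both sides.

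Within WT cells, the total to 4sU ratio was described after subtracting the median of all tested genes. All 9 genes lay above that median, and their own median was 0.64 on the log2 scale. Rbbp4 was highest, with 1.44, 1.39 and 1.30 in the 3 replicates, and its fitted value of 1.38 stood at the 89.9th percentile of tested genes. Ezh2 followed in the fit at 0.69, 1.02 and 1.02 (fitted 0.92, 78.6th percentile), though its replicates overlapped with those of the next genes. Ezh1 at 0.91, 0.49 and 0.61, Suz12 at 0.64, 0.78 and 0.74 and Eed at 0.57, 0.72 and 0.62 overlapped with each other, at fitted values of 0.71, 0.72 and 0.64. Mtf2 stood at a fitted 0.36, and the accessory genes Aebp2 (0.17), Jarid2 (0.10) and Phf19 (0.09) lay close to the median of all genes. The core genes thus had higher ratios than the cofactor genes, with every replicate of Suz12, Eed, Ezh2 and Rbbp4 above every replicate of the 4 cofactor genes. The position relative to 0 depended on the genes kept, because the median of all genes moves with the filter: with only genes at 3 CPM in all 12 libraries, the median of the tested members was 0.40, and Jarid2 (-0.18) and Aebp2 (-0.11) lay below 0. In Dgcr8 KO the ratio lay above all WT values without overlap for 3 of the 9 genes, as it did for 16.7% of tested genes. These were Ezh1 at 1.20, 1.12 and 1.01, Suz12 at 0.88, 0.88 and 0.87 and Aebp2 at 0.52, 0.32 and 0.43, against 0.07, 0.14 and 0.29 for Aebp2 in WT. The tests given above, with the settings under which Ezh1 and Aebp2 passed, used the fitted change without subtracting a median. The median fitted change of all tested genes was -0.09, so those tests are not of the ratios shown here. In those tests Suz12 did not pass in the TMM fit (log2 change 0.066, limma adjusted p = 0.628) or under any of 17 alternatives. The ratio lay below all WT values for 0 of the 9 genes, against 16.3% of tested genes.

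**Figure D5:**
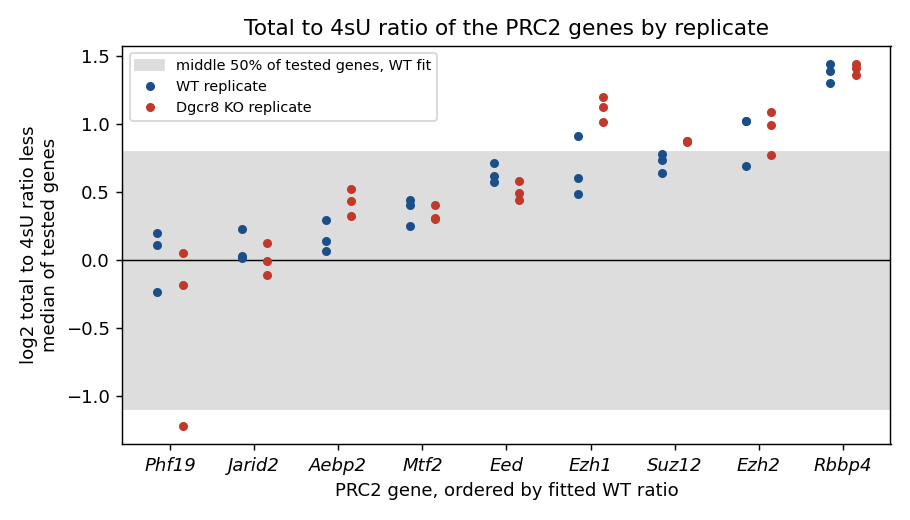
Log2 ratio of total to 4sU level (CPM plus 1) less the median of tested genes, for each PRC2 gene and replicate of WT (blue) and Dgcr8 KO (red), over a grey band that holds the middle 50% of tested genes in the WT fit. Rbbp4 stands highest in both genotypes, Ezh1 lies higher in Dgcr8 KO than in WT, and Phf19, Jarid2 and Aebp2 lie near 0 in WT.

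The genes most like Ezh1 and Ezh2 over the 12 libraries were found by Pearson's r of log2 CPM, as a description, since the points share libraries and fall into 4 groups. For Ezh1 they were Ephx2 (r = 0.989), Adgre5 (r = 0.988) and Plin2 (r = 0.988). Ephx2, which encodes an epoxide hydrolase, went from a mean of 27.2 to 207.8 CPM in total RNA, and Plin2, which encodes a lipid droplet protein, from 88.8 to 211.5 CPM. For Ezh2 they were Katna1 (r = 0.995), Wdr76 (r = 0.994) and Kif15 (r = 0.993). Kif15 encodes a mitotic kinesin and Katna1 a subunit of the microtubule-severing enzyme katanin. Mean total levels of these went from 183.9 to 130.6 CPM for Kif15, from 72.4 to 50.3 CPM for Katna1 and from 217.2 to 133.1 CPM for Wdr76.

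Other PRC2 subunits were read from a fixed list of 5 genes, of which 4 were tested. In total RNA, Lcor, whose locus also encodes PALI1, an alternative partner of PRC2.1, had a log2 change of 1.55 (adjusted p = 7.29e-16 by limma, SE 0.0885), from 30.4 ± 3.07 to 88.2 ± 3.24 CPM, while its nascent level was 79.3 ± 5.78 and 80.8 ± 10.3 CPM (SD, n = 3). Epop, the competing partner that binds elongin, had a log2 change of -0.71 (adjusted p = 2.64e-10 by limma, SE 0.0700), from 115.3 ± 10.5 to 71.1 ± 8.37 CPM, with 344.4 ± 18.6 and 336.9 ± 5.74 CPM in nascent RNA. Neither passed in nascent RNA, and for both the total to 4sU ratio did pass, by 1.53 for Lcor (limma adjusted p = 2.18e-10) and -0.68 for Epop (limma adjusted p = 8.29e-06). Phf1, a further Polycomb-like gene, did not pass in total RNA (log2 change 0.07, limma adjusted p = 0.744) or nascent RNA (-0.32, limma adjusted p = 0.101). Rbbp7 passed in nascent RNA only, as given above.

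PRC1, the complex that ubiquitylates histone H2A, was described from 24 subunit genes, 23 of them tested. In total RNA 9 passed higher and 5 lower, with a median log2 change of 0.19, beside 26.1% and 35.4% of all tested genes and their median of -0.09. The largest rises were Phc3, a polyhomeotic subunit (1.36, SE 0.0826, limma adjusted p = 3.17e-15), and Pcgf5 (0.71, SE 0.144, limma adjusted p = 8.10e-05). The largest falls were the chromobox genes Cbx7 (-0.47, SE 0.0723, limma adjusted p = 1.13e-06) and Cbx2 (-0.43, SE 0.0830, limma adjusted p = 3.82e-05). Cbx7 is the main reader of the PRC2 mark in ESCs. In nascent RNA 11 passed higher and 2 lower, beside 28.3% and 28% of all tested genes.

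Of the enzymes that remove the mark, Kdm6b fell in total RNA, by 0.42 on the log2 scale (adjusted p = 0.000215 by limma, SE 0.0920), and Kdm6a did not pass. Among 13 trithorax and COMPASS genes, whose products oppose Polycomb, 6 passed higher and 6 lower in total RNA, with a median of 0.02, beside the same 61.5% and -0.09 over all tested genes. The largest rises were Ash1l, an H3K36 methyltransferase (1.11, SE 0.0632, limma adjusted p = 6.91e-16), and Kmt2e (0.89, SE 0.0905, limma adjusted p = 4.66e-10). The largest falls were Ash2l, a core COMPASS subunit (-0.80, SE 0.0525, limma adjusted p = 1.82e-14), and Men1 (-0.54, SE 0.0854, limma adjusted p = 2.06e-06).

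Developmental genes listed as silenced by Polycomb in ESCs were read from a fixed list of 82, and 39 of them were high enough to be tested. The PRC2 mark was not measured in these cells, so which of the 82 carried it here is not known. In total RNA 17 passed higher and 13 lower, where 26.1% and 35.4% of all tested genes did. In nascent RNA 21 passed higher and 11 lower, where 28.3% and 28% did. Of the 39, 5 reached 3 CPM only in Dgcr8 KO libraries and 4 only in WT libraries. Such genes entered the test through the group in which they were high, so the counts describe the tested genes and not the list. Both the largest rises and the largest falls were Hox genes, and of those named Hoxa9 and Hoxd4 reached 3 CPM only in Dgcr8 KO and Hoxc4 only in WT libraries. Hoxa9 went from 6 to 9 counts per library in WT total to 92 to 106 in Dgcr8 KO total (fitted log2 change 3.68), and Hoxd4 from 3 to 4 counts to 24 to 44 (3.03). Hoxc13 went from 74 to 109 counts to 17 to 18 (-2.35, SE 0.218, limma adjusted p = 6.26e-11), and Hoxc4 from 26 to 32 counts to 5 to 10 (-2.10). The summed level of all 82 was 489.6 to 504.6 CPM in WT total and 491.5 to 514.2 CPM in Dgcr8 KO total libraries, which overlapped. It was 1571 to 1637 CPM in WT 4sU and 1729 to 1939 CPM in Dgcr8 KO 4sU libraries, which did not overlap. In the means of these groups, in this order, 49, 45, 33 and 30 genes lay under 1 CPM, so the sums rest mainly on the others. With only genes at 3 CPM in all 12 libraries, 10 of the list passed in total RNA, where 67.07% of 10261 tested genes passed. How many of the list that filter kept is not given here, so the 10 cannot be set against that share.

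The marker lists were read in the same way, mainly in total RNA. Of 10 pluripotent cell markers, 3 passed higher and 6 lower in total RNA and 7 higher and 2 lower in nascent RNA, beside 26.1% and 35.4%, and 28.3% and 28%, of all tested genes. The total RNA changes were led by Sox2 (0.32, limma adjusted p = 1.49e-07) and Pou5f1 (0.26, limma adjusted p = 4.21e-05) and by Sall4 (-0.46, limma adjusted p = 2.44e-09) and Klf4 (-0.40, limma adjusted p = 5.21e-06), and Klf4 passed higher in nascent RNA (0.15, limma adjusted p = 0.0333). Of 12 fibroblast markers 4 were tested, and Pdgfra passed higher (2.20, at 24 to 51 counts in Dgcr8 KO total libraries, and at 3 CPM in Dgcr8 KO libraries only) and Pdgfrb lower (-0.77, limma adjusted p = 0.00160). Of 15 early differentiation markers 8 were tested, with Krt8 (2.49, limma adjusted p = 5.42e-11) and Otx2 (0.78, limma adjusted p = 7.94e-08) higher and Dnmt3b (-0.90, limma adjusted p = 4.29e-09) lower. These calls in total RNA stand beside the same 26.1% higher and 35.4% lower of all tested genes. In nascent RNA 4 of the 8 passed higher and 2 lower, and of the 4 fibroblast markers 0 higher and 1 lower. The shares of all tested genes were again 28.3% and 28%.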

How the data were processed

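Deposited values were raw counts per gene. Per the file header, the labels and the published methods, the authors trimmed reads with cutadapt 1.14, kept unique STAR 2.5.3a alignments to mm10 and counted exons of GENCODE M14 with featureCounts 1.5.3 by strand. Unique mapping can under-count genes with near-identical copies elsewhere, which was not tested for the 9 genes. At their own loci, no exonic base of the 9 genes was shared with another annotated gene of the same strand. Symbols and 3′ UTRs came from GENCODE M21 (same build), which matched 51274 of 51467 identifiers, and microRNAs from RefSeq (GRCm38.p6). Groups were read from sample titles. Following the study, genes with at least 3 CPM in at least 3 libraries (14033) were kept. A linear model of all 12 libraries, with terms for library type, for genotype and for both together, was fitted as in the study in limma, here version 3.58.1 under R 4.3.3. TMM scaling from edgeR 4.0.16 and voom weights were chosen here. Calls needed an adjusted p under 0.05 (Benjamini-Hochberg, over all tested genes). Levels per length used the deposited exon length. Ratios within replicates used log2 of CPM plus 1. Pairs of paralogues were compared by exact permutation in scipy. The quasi-likelihood test of edgeR and DESeq2 1.42.0, with other filters, scalings and blocks, were alternatives. Scripts were tested on simulated data. Library totals of 4593914 to 9295245 limit the precision of low genes, and counts were not collapsed to molecules.

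The 9 genes and all lists were chosen with earlier results of these data known. The 9 genes were to be named in full; from each list only the 2 largest rises and 2 largest falls past the test in total RNA were named, with the 3 genes most like Ezh1 and Ezh2, and Dgcr8 as the check of labels. Same-numbered 4sU and total libraries were taken as parts of the same RNA from the labelling protocol, which says that samples were divided, and from the shared numbers in the titles; their deviations from group means correlated at 0.013 to 0.09. Between genotypes the same numbers correlated at -0.0747 to 0.0729, so they did not pair libraries measurably. These ranges overlap, so the correlations do not show the pairing of 4sU and total libraries either, which rests on the protocol and the titles. All replicate pairs differed by more than sampling noise. Every per-sample column was used.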

Additional observations from a re-analysis of the deposited data

Results flagged for a closer look

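For 10 of the named genes outside the main list, the genotype effect differed between total and nascent RNA by the interaction term (log2 change of the total to 4sU ratio, Dgcr8 KO minus WT). Apart from Dgcr8, the 10 were named for the largest total RNA changes of their lists, and that change enters this term. The count of 10 is therefore no measure of how common such a difference is, and 16.1% of all tested genes passed. The interaction term was -1.09 for Dgcr8 itself (limma adjusted p = 3.11e-08), 1.53 for Lcor, 0.81 for Phc3 (limma adjusted p = 6.52e-06) and 0.80 for Ash1l (limma adjusted p = 9.94e-08). It was -0.68 for Epop and -0.55 for Klf4 (limma adjusted p = 8.40e-05), and these 6 passed under all 17 alternatives. It was -0.33 for Cbx7 (limma adjusted p = 0.0219), -0.37 for Kdm6b (limma adjusted p = 0.0425), -0.19 for Sox2 (limma adjusted p = 0.0323) and -0.24 for Sall4 (limma adjusted p = 0.0174). These 4 passed under 9, 7, 7 and 12 of 17 alternatives and were lost with RLE size factors, upper-quartile factors and DESeq2, with the highest adjusted p over all alternatives at 0.172, 0.245, 0.429 and 0.206. None of the 9 PRC2 genes of the main list differed in this way in edgeR or in limma with TMM factors and no block. By either, 4 had an unadjusted p under 0.05, a limit at which the share of all tested genes was not counted. DESeq2 called 2 of the 9, beside 11.8% of tested genes, and limma with RLE size factors 2, beside 14.3%. With same-numbered 4sU and total libraries joined, limma called 3, beside 19.6%.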

How the results depend on the processing

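Directions in total and nascent RNA of the 9 PRC2 genes were kept under every alternative run. With the limit of an absolute log2 change over 1, 2 passed in total and 0 in nascent RNA, because only changes of that size count. Of all tested genes, 17.6% and 14.8% passed with that limit. Leaving out replicates gave 8 to 9 in total RNA, 8 in nascent RNA and 0 to 1 for stability. The shares of tested genes were then 57.14% to 58.53% in total RNA, 50.07% to 53.39% in nascent RNA and 11.91% to 14.49% for stability. With the replicate number as a block, 9 passed in total RNA, 8 in nascent RNA and 0 for stability. The shares of tested genes were 62.15%, 57.25% and 17.29%. With the block that joins 4sU and total libraries of 1 replicate, 3 passed for stability, beside 19.6% of tested genes. For stability 2 passed with DESeq2, 2 with RLE and 1 with upper-quartile scaling, beside 11.8%, 14.3% and 14.2% of tested genes. The stability change of Ezh2 turned positive with DESeq2 (0.045), quality weights (0.024), RLE (0.047) and upper-quartile factors (0.024) and ranged from -0.16 to 0.048 without single replicates, and that of Rbbp4 turned to 0.028 with DESeq2, 0.028 with RLE and 0.0051 with upper-quartile factors; none of these passed. The median WT ratio of 0.64 became 1.21 with no filter and 0.40 with 3 CPM in all libraries, where Phf19 was not tested, and 0.55 to 0.63 without single replicates. With 3 CPM in all libraries Jarid2 lay at -0.18 and Aebp2 at -0.11, and without WT replicate 2 Phf19 lay at -0.043. The Mtf2 to Phf19 difference without single replicates lay between 0.33 (without Dgcr8 KO replicate 3) and 1.03 in total RNA, and between -0.17 and 0.19 in 4sU RNA. With library sizes alone the summed levels were 703.4, 565.7, 499.1 and 422.4 CPM per kilobase in WT total, Dgcr8 KO total, WT 4sU and Dgcr8 KO 4sU. Sites in any coding transcript left the 2 genes with a miR-294-3p site as they were and moved let-7a-5p from 1 to 2. Of the lists, fibroblast markers past the test in total RNA went from 2 to 1 with 3 CPM in all libraries and without Dgcr8 KO replicate 1, and early differentiation markers from 3 to 5 with library sizes alone, with no filter and without WT replicate 2. The shares of tested genes under these settings, in this order, were 67.07%, 57.56%, 60.51%, 29.99% and 58.52%. Causes were not tested beyond what each alternative's construction shows. Depth limits Phf19, at 5 to 40 counts.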
